A study of Homo sapiens with 8 samples.

Results

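The effect of indisulam in A549 cells that were also exposed to SPHINX31 was described by comparing the combination of both agents with SPHINX31 alone. The comparison used the raw read counts per Ensembl gene of the 2 combination libraries and the 2 SPHINX31 libraries, 4 of the 8 libraries of the series, and of 60624 gene rows 18661 had enough reads to be tested. A549 is a human lung adenocarcinoma cell line. SPHINX31-treated cells received 5 µM SPHINX31 and the combination received 0.5 µM indisulam with 5 µM SPHINX31, both for 24 h. The sources differ on this point, since the protocol in the labels has 2 µM indisulam and 18 h. Untreated cells and cells given indisulam alone served as the same contrast without SPHINX31. The libraries of a group are technical replicates, so p-values here measure the spread between libraries, which may be technical only.

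Indisulam is an aryl sulfonamide that glues the splicing factor RBM39 to DCAF15, a substrate receptor of a CUL4 ubiquitin ligase, and RBM39 is then degraded by the proteasome. RBM39 takes part in the choice of 3′ splice sites, and its loss is known to cause exon skipping and intron retention. SPHINX31 inhibits SRPK1, a kinase that phosphorylates the serine- and arginine-rich (SR) splicing factors and so controls their entry into the nucleus. The question of this contrast is which transcripts still responded to indisulam while SRPK1 was inhibited.

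The 4 libraries held 53562421 and 58384047 counts on genes with SPHINX31 and 55852384 and 56291535 with the combination. The keratins KRT8, KRT18, KRT7 and KRT19 and the epithelial adhesion genes EPCAM and CDH1 were detected in all 4 libraries, KRT8 at 3474 to 3787 CPM (counts scaled by adjusted library size). CDKN2A, which the plan of markers listed as deleted in A549, was nonetheless at 3.27 to 3.64 CPM in the 4 libraries. The source of these reads was not tested. Of 13 markers of blood, endothelial, stromal and neuronal cells, 8 were under 1 CPM in both groups, and the summed level of all 13 was 27.1 to 27.2 CPM with SPHINX31 and 31.4 to 31.9 CPM with the combination. The neuronal gene SNAP25 rose from 10.4 and 9.93 CPM to 15.6 and 15.6 CPM, and PECAM1 and SYP had lower means with the combination. The part of this shift in the results was not tested. In a bulk sample, fewer cells of one state and less RNA per cell cannot be told apart.

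Indisulam changed a large share of the transcriptome in the presence of SPHINX31. With edgeR's quasi-likelihood test and Benjamini-Hochberg adjustment at a threshold of 0.05, 9314 of 18661 genes (49.9%) were called, 4364 (23.4%) higher and 4950 (26.5%) lower in the combination. Most changes were small, with a median absolute log2 fold change of 0.30 over all tested genes and a median signed change of 0.00. A change of at least 2-fold, whether called or not, was seen in 914 genes upward (4.9%) and 1193 downward (6.39%), and in 388 and 681 genes when at least 10 counts were required in every library. Among genes at a mean of at least 3 on the log2 CPM scale over all 8 libraries, 35 rose by that much and 238 fell. The well expressed genes with large changes were thus mainly decreases.

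The drug target itself was higher at the RNA level. RBM39, on the minus strand of chr20:35701347-35742312 (GRCh38), stood at 166 and 184 CPM with SPHINX31 and at 373 and 391 CPM with the combination. Both combination libraries were above both SPHINX31 libraries, with a log2 fold change of 1.13 ± 0.0551 (SE; edgeR adjusted p = 4.41e-09). The protein, which indisulam degrades, was not measured by these libraries. SRPK1, the target of SPHINX31, was at 118 and 131 CPM with SPHINX31 and at 110 and 109 CPM with the combination. Its log2 fold change was -0.19 (edgeR adjusted p = 0.0112), a small decrease that did not pass the threshold when SPHINX31 replicate 2 (-0.10, edgeR adjusted p = 0.144), combination replicate 1 (-0.18, edgeR adjusted p = 0.0603) or combination replicate 2 (-0.19, edgeR adjusted p = 0.0540) was left out. DCAF15, the receptor that indisulam binds, was at 19.5 and 18.9 CPM with SPHINX31 and at 21.4 and 19.9 CPM with the combination. Its difference of 0.10 on the log2 scale did not pass the test (95% interval -0.05 to 0.26, edgeR adjusted p = 0.256).

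The ranking took called protein-coding genes at a mean of at least 3 on the log2 CPM scale whose groups did not overlap. The 10 largest increases were PTBP2, SEC31B, RRAGB, AMH, EYA3, ZNG1B, ZNF557, PRPF3, HSPA8 and PRPF39, with log2 fold changes of 1.20 to 2.30. PTBP2, the neuronal member of the polypyrimidine tract binding proteins and a splicing repressor, lies at chr1:96721665-96823738 and was at 14.3 and 15.2 CPM with SPHINX31 and at 71.3 and 73.6 CPM with the combination. The libraries of each group lay close together and the groups were far apart, with a log2 fold change of 2.30 ± 0.0599 (SE; edgeR adjusted p = 7.37e-11). RRAGB, a Rag GTPase that carries the amino acid signal to mTORC1, went from 8.62 and 9.23 CPM to 35.2 and 35.5 CPM (1.98 on the log2 scale). SEC31B, a subunit of the COPII vesicle coat, went from 8.47 and 10.1 CPM to 45.9 and 32.9 CPM (2.09). The combination libraries differed more from each other for SEC31B than for RRAGB, but in both genes they were above both SPHINX31 libraries. EYA3, a transcriptional co-activator with phosphatase activity, rose from 16.1 and 17.7 CPM to 52.3 and 55.4 CPM (1.67).

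PRPF3 and PRPF39 are themselves splicing proteins, one of the U4/U6 snRNP and one that associates with the U1 snRNP. PRPF3 was at 49.4 and 53.3 CPM with SPHINX31 and at 125 and 120 CPM with the combination (1.25 on the log2 scale). PRPF39 was at 26.6 and 30.6 CPM and then at 63 and 68.9 CPM (1.20). HSPA8, the constitutive HSC70 chaperone, was by far the most abundant of the 10, at 619 and 742 CPM with SPHINX31 and at 1679 and 1554 CPM with the combination (1.25 ± 0.0719, SE; edgeR adjusted p = 1.93e-08). Both combination libraries were above both SPHINX31 libraries in all 10 genes because the choice of genes required it. This held for 36.8% of all tested genes. HSPA8 has processed copies, and ZNG1B belongs to a family of near-identical copies, so reads may have been split between loci in both. PRPF39 overlaps FKBP3 on the opposite strand, and the strand setting of the counting is not given in the sources used here.

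The 10 largest decreases were TXNIP, R3HDM2, NTSR1, SLC7A11, DMAC2L, CENPI, MOCOS, ALDH1L2, ZDHHC2 and RNF170, with log2 fold changes of -2.52 to -1.94. TXNIP, an inhibitor of thioredoxin that also limits glucose uptake, was at 21.5 and 15.1 CPM with SPHINX31 and at 2.52 and 3.83 CPM with the combination. Its duplicates were spread more widely than those of the other decreases in this set, and the groups did not overlap (-2.52 ± 0.190, SE; edgeR adjusted p = 2.17e-07). R3HDM2, an R3H domain protein of 24 exons at chr12:57253762-57431043, was at 54.9 and 53.9 CPM and then at 10.6 and 10.3 CPM (-2.38 ± 0.0670, SE; edgeR adjusted p = 9.0e-11). SLC7A11, the cystine and glutamate antiporter that supplies cysteine for glutathione, was at 660 and 742 CPM and then at 139 and 146 CPM (-2.30 ± 0.0702, SE; edgeR adjusted p = 1.99e-10). It was the most abundant of the 10, and both combination libraries were below both SPHINX31 libraries.

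NTSR1, the neurotensin receptor, fell from 34.0 and 30.2 CPM to 6.30 and 6.53 CPM (-2.32). CENPI, a subunit of the constitutive centromere network, fell from 19.8 and 24.4 CPM to 5.07 and 4.59 CPM (-2.19). MOCOS, the molybdenum cofactor sulfurase, fell from 42.5 and 40.2 CPM to 8.26 and 10.4 CPM (-2.15). In these 3 genes, as in the other 7, both combination libraries were below both SPHINX31 libraries, again because the choice required it. This held for 37.5% of all tested genes. ALDH1L2, the mitochondrial 10-formyltetrahydrofolate dehydrogenase, fell from 85.6 and 89.3 CPM to 20.6 and 23 CPM (-2.01). The palmitoyltransferase ZDHHC2 (-1.96) and the endoplasmic reticulum ubiquitin ligase RNF170 (-1.94) completed the set together with DMAC2L (-2.26). ALDH1L2, DMAC2L and RNF170 overlap genes on the opposite strand, WASHC4 and NOPCHAP1, CDKL1, and HOOK3.

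Many genes of the splicing machinery rose. Of 14 SR protein genes, 10 were called higher, 2 lower and 2 were not called, with a median log2 fold change of 0.38, against 23.4% higher, 26.5% lower and a median of 0.00 over all tested genes. SRSF1, which binds exonic enhancers and is a known SRPK1 substrate, was at 65.3 and 70.2 CPM with SPHINX31 and at 127 and 128 CPM with the combination (0.91, edgeR adjusted p = 1.73e-08). SRSF4 (0.51), SRSF2 (0.47) and SRSF3 (0.42) rose as well, while SRSF6 fell by 0.27. SRSF12, which was near 2 CPM, fell by 0.75. Of 11 tested kinases that phosphorylate SR proteins, 4 were higher (36.4%), 2 lower (18.2%) and 5 not called (median 0.02). The rises were those of CLK4, from 9.50 and 11.0 CPM to 22.2 and 21.9 CPM (1.10, edgeR adjusted p = 1.33e-07), CLK1 (0.75), PRPF4B (0.47) and CLK3 (0.33), which are nuclear kinases of SR proteins, and the 2 decreases were SRPK1 and DYRK2 (-0.22). SRPK2, the close relative of SRPK1, had a log2 fold change of 0.01 and was not called.

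Of 21 factors that recognise the branch point and the 3′ splice site, 15 were called higher (71.4%), 2 lower (9.52%) and 4 not called (median 0.29). Among all tested genes 23.4% were higher and 26.5% lower. SF1, the branch point binding protein, went from 274 and 270 CPM to 471 and 466 CPM (0.79, edgeR adjusted p = 1.57e-08), with no overlap of the groups. DHX15, a helicase that releases the spliceosome (0.73), U2AF2, the subunit of U2AF that binds the polypyrimidine tract (0.46), RBM23, the paralogue of RBM39 (0.45), and SF3B1, the core of the U2 particle (0.33), rose too. U2AF1L4 (1.07) and U2AF1 (0.83) were also called higher, but U2AF1 was at 0.513 to 1.19 CPM in the 4 libraries and is a gene with a near-identical copy in GRCh38, so its value is uncertain. SUGP1 (-0.39) and RBM17 (-0.22), both G-patch proteins of the spliceosome, fell.

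The hnRNPs and PTB proteins bind pre-mRNA and often repress exons. Of 25 such genes, 13 were higher (52%), 6 lower (24%) and 6 not called (median 0.13), against 23.4% and 26.5% of all tested genes. PTBP1, the widely expressed relative of PTBP2, was at 336 and 346 CPM with SPHINX31 and at 481 and 485 CPM with the combination (0.50, edgeR adjusted p = 2.94e-06), so both rose. HNRNPDL (0.62), HNRNPL (0.60) and HNRNPC (0.58) were higher, and HNRNPAB (-0.41), HNRNPUL2 (-0.41) and HNRNPU (-0.35) were lower. Nonsense-mediated decay, which removes transcripts with early stop codons, showed no common direction. Of 19 genes, 5 were higher (26.3%), 4 lower (21.1%) and 10 not called (median -0.03), shares near those of all tested genes. The kinase SMG1 went from 166 and 170 CPM to 128 and 115 CPM (-0.47), while the central helicase UPF1 (-0.05) was not called.

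Among 26 genes of the CRL4-DCAF15 ligase, the COP9 signalosome and neddylation, 7 were higher (26.9%), 6 lower (23.1%) and 13 not called, with a median of 0.02. These shares were near those of all tested genes (23.4% and 26.5%). The adaptor DDB1 (0.09), DCAF15 (0.10) and DDA1 (0.04) were not called, and neither was CAND1, the substrate receptor exchange factor (0.02). The scaffold CUL4B (0.26) and the RING subunit RBX1 (0.50) were higher and CUL4A (-0.17) was lower. Subunits of the COP9 signalosome, which removes NEDD8 from cullins, moved both ways: its catalytic subunit COPS5 went from 48.1 and 45.7 CPM to 73.8 and 74.2 CPM (0.66), whereas COPS3 went from 96.6 and 103 CPM to 65.1 and 70.5 CPM (-0.56). COPS5 overlaps CSPP1 on the opposite strand.

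Genes of the centromere and the mitotic apparatus contained some of the deepest decreases. Of 45 centromere and kinetochore genes, 18 were lower, 10 higher and 17 not called (median -0.13), where 26.5% of all tested genes were lower and 23.4% higher. The decreases were deepest in the constitutive centromere network, the inner platform on which kinetochores are built. Beside CENPI, CENPK went from 32.3 and 36.6 CPM to 9.20 and 8.96 CPM (-1.93), CENPM from 15.6 and 15.5 CPM to 4.72 and 4.72 CPM (-1.72) and CENPU from 25.4 and 28.9 CPM to 9.90 and 9.61 CPM (-1.48). In all 4 genes both combination libraries were below both SPHINX31 libraries, as in 37.5% of all tested genes, and CENPU shares its locus with PRIMPOL on the opposite strand. The network was not lowered as a whole, since CENPC (0.55), CENPQ (0.46) and CENPT (0.23) rose. SKA2, a microtubule-binding subunit at the outer kinetochore, fell from 54.8 and 58.7 CPM to 19.4 and 23.6 CPM (-1.40), and the kinetochore scaffold KNL1 fell by 0.69.

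Of 47 genes of mitotic entry and the spindle, 25 were lower (53.2%, against 26.5% of all tested genes), 7 higher (14.9%, against 23.4%) and 15 not called (median -0.18). NCAPH, the kleisin of condensin I, was at 51.3 and 56.4 CPM with SPHINX31 and at 21.7 and 20.8 CPM with the combination (-1.34, edgeR adjusted p = 1.44e-08). TOP2A, the topoisomerase that resolves entangled chromosomes, was at 534 and 613 CPM and then at 239 and 238 CPM (-1.27, edgeR adjusted p = 9.65e-09). The condensin subunits SMC4 (-0.81), NCAPD2 (-0.68) and NCAPG (-0.52) fell with NCAPH, whereas SMC2 rose (0.30). The kinase and cyclin that drive entry into mitosis were not called: CDK1 was at 114 and 133 CPM and then at 120 and 126 CPM (-0.01), and CCNB1 had the same log2 fold change of -0.01. WEE1, the kinase that inhibits CDK1, was higher (0.43).

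Replication genes moved in both directions. Of 56 genes of DNA replication and nucleotide synthesis, 25 were higher (44.6%), 18 lower (32.1%) and 13 not called (median 0.11). Among all tested genes 23.4% were higher and 26.5% lower. POLA1, the catalytic subunit of DNA polymerase alpha, fell from 66.7 and 74.5 CPM to 25.8 and 26.9 CPM (-1.42, edgeR adjusted p = 5.21e-09), and CDC45, which activates the replicative helicase, fell from 28.5 and 30.6 CPM to 14.7 and 14.1 CPM (-1.04). RRM2, the small subunit of ribonucleotide reductase, fell from 167 and 192 CPM to 99.5 and 103 CPM (-0.82). The helicase subunits MCM2 (0.20), MCM3 (0.25), MCM4 (0.41), MCM5 (0.33), MCM6 (0.40) and MCM7 (0.19) all rose, and so did ORC1, which recognises origins, from 28.7 and 33.9 CPM to 60.8 and 62.3 CPM (0.97). ORC5, in contrast, fell from 40.5 and 41.0 CPM to 20.6 and 21.8 CPM (-0.94). GINS1 (0.84) rose while its partner GINS4 (-0.55) fell.

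Of 56 genes of the DNA damage response and repair, 15 were higher (26.8%), 20 lower (35.7%) and 21 not called (median 0.09). Among all tested genes 23.4% were higher and 26.5% lower. The Fanconi anaemia genes FANCI (167 and 197 CPM to 87.6 and 83.4 CPM, -1.09), FANCL (-0.83) and FANCD2 (-0.58) fell, and both FANCI and FANCL overlap a gene on the opposite strand. BRCA1 (-0.55), BARD1 (-0.54), ATM (-0.37) and ATR (-0.35) fell as well. HUS1, a subunit of the checkpoint clamp, rose from 16.7 and 16.0 CPM to 29.0 and 29.5 CPM (0.84). Targets of p53 were mixed, with 12 of 34 higher (35.3%), 10 lower (29.4%) and 12 not called (median 0.11). BAX, the pro-apoptotic effector, went from 64.7 and 60.1 CPM to 99.6 and 97.3 CPM (0.66), and XPC, a damage sensor of nucleotide excision repair, went from 63 and 60.0 CPM to 37.3 and 34.8 CPM (-0.77). CDKN1A, the p21 gene and a standard readout of p53, was not called (0.11, edgeR adjusted p = 0.155).

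ATF4 is the transcription factor of the integrated stress response and turns on amino acid transport, serine and one-carbon metabolism and tRNA charging. Every called target went the same way. Of 34 targets, 28 were called lower, 0 higher and 6 not called, with a median of -0.64, against 26.5% lower among all tested genes and a median of 0.00. ATF4 RNA itself was at 539 and 515 CPM with SPHINX31 and at 488 and 523 CPM with the combination, an overlap of the groups, and was not called (-0.06, edgeR adjusted p = 0.356). ATF4 is mainly controlled through translation, which was not measured here. The other 5 that were not called were ATF3, CEBPB, SLC38A2, ASNS and FGF21. SLC7A11 and SESN2 also belong to other lists.

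By role, the amino acid transporters SLC7A11 (-2.30), SLC6A9 (-1.30), SLC1A5 (-0.37), SLC3A2 (-0.34) and SLC7A5 (-0.24) were lower. The serine and one-carbon enzymes ALDH1L2 (-2.01), PSAT1 (-0.91), PSPH (-0.88), SHMT2 (-0.74), MTHFD2 (-0.67) and PHGDH (-0.48) were lower too. PSAT1, an aminotransferase of serine synthesis, was at 436 and 447 CPM with SPHINX31 and at 201 and 269 CPM with the combination. PCK2, the mitochondrial PEP carboxykinase, was at 265 and 236 CPM and then at 82.6 and 105 CPM (-1.42, edgeR adjusted p = 4.99e-08). The tRNA synthetases AARS1 (-0.72), GARS1 (-0.68), CARS1 (-0.66) and WARS1 (-0.62) fell by similar amounts. Of the stress effectors, TRIB3 was at 552 and 485 CPM and then at 226 and 305 CPM (-0.97), and DDIT3, which encodes CHOP, was at 86.1 and 74.1 CPM and then at 40.7 and 52.7 CPM (-0.78). In these genes combination replicate 2 lay nearer to the SPHINX31 libraries than combination replicate 1, without reaching them.

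Promoters of the list were searched for the core of the C/EBP-ATF composite element. The letters TGATGCAA, searched on both strands from 250 bases before to 50 bases after the start in RefSeq (GRCh38.p14), were found in 4 of 29 list promoters (13.8%), in 0.919% of 27195 promoters in all and in 0.547% of the promoters of tested genes. A match is a run of letters and no evidence of binding. The promoters of 3 lowered targets that hold it are shown because they place the element at different distances from the start. Its first letter lay 187 bases before the start in AARS1 (chr16:70289457-70289756, minus strand). In CARS1 (chr11:3057374-3057673, minus strand) it lay 2 bases before the start, so that the element spans the start. In CHAC1 (chr15:40953221-40953520, plus strand) it lay 209 bases before the start. All 3 promoters are written 5′ to 3′ along the gene's strand with the element, here in reverse complement, in capitals.
AARS1: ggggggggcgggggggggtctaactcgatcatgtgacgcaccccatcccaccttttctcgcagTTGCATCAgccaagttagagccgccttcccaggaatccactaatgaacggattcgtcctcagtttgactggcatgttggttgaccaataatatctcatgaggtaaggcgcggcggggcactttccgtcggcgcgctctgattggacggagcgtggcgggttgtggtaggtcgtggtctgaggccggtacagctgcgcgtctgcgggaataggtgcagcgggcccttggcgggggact
CARS1: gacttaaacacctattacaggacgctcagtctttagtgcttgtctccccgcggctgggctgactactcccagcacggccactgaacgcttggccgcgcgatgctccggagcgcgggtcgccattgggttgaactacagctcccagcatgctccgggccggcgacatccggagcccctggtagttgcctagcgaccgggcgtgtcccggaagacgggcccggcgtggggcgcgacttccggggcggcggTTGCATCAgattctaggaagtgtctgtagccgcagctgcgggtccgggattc
CHAC1: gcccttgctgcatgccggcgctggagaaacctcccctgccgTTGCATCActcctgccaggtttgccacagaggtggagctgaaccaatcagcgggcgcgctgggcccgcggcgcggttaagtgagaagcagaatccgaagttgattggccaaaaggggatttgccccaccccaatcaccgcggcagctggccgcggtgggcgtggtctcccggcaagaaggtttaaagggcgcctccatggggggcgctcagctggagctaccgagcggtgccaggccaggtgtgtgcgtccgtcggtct

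AARS1 was at 941 and 877 CPM with SPHINX31 and at 503 and 602 CPM with the combination. CARS1 was at 127 and 123 CPM and then at 72.8 and 85.4 CPM. CHAC1, a glutathione-degrading enzyme, was at 28.1 and 25.9 CPM and then at 21.5 and 23.4 CPM, a smaller change (-0.26, edgeR adjusted p = 0.0240). All 3 genes were lower in both combination libraries than in both SPHINX31 libraries, the pattern of 37.5% of all tested genes.

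NRF2, the regulator of antioxidant genes, shares SLC7A11 with ATF4, but its list had no common direction. Of 36 targets, 12 were higher (33.3%), 11 lower (30.6%) and 13 not called (median 0.02). Beside SLC7A11, the exporter ABCC3 fell from 820 and 740 CPM to 254 and 230 CPM (-1.69, edgeR adjusted p = 7.32e-10) and PIR fell from 110 and 112 CPM to 55.8 and 57.4 CPM (-0.98). NQO1, a quinone reductase that is among the most used readouts of NRF2, was at 2647 and 2675 CPM and then at 2242 and 2335 CPM (-0.22), and HMOX1 (0.09) was not called. Of 14 targets of the aryl hydrocarbon receptor, 8 were lower (57.1%, against 26.5% of all tested genes), 3 higher (21.4%, against 23.4%) and 3 not called (median -0.23). Among the 3 that rose, UGT1A6 went from 6.18 and 6.75 CPM to 12.9 and 12.6 CPM (0.98). It overlaps other UGT1A genes on the same strand, so its value is uncertain. CYP1B1 was at 639 and 636 CPM with SPHINX31 and at 339 and 395 CPM with the combination (-0.80, edgeR adjusted p = 5.43e-07). TIPARP, a negative regulator of the receptor, was at 51.1 and 55.2 CPM and then at 34.2 and 38.6 CPM (-0.55, edgeR adjusted p = 2.45e-05), and CYP1A1 was at 7.29 and 5.74 CPM and then at 1.57 and 2.03 CPM (-1.85). The decreases of CYP1B1, TIPARP and CYP1A1 started from levels that were higher than in untreated cells, a difference that was not tested here. In untreated cells CYP1B1 was at 110 and 121 CPM, TIPARP at 17.0 and 16.6 CPM and CYP1A1 at 0.227 and 0.0839 CPM. ALDH3A1, another target on this list, fell from 7663 and 7006 CPM to 4641 and 4605 CPM (-0.67). Without SPHINX31 it went from 6751 and 6222 CPM to 3839 and 4322 CPM (-0.67).

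Cytosolic ribosomal protein genes rose together by small amounts. Of 78 tested, 65 were called higher, 0 lower and 13 not called, against 23.4% higher and 26.5% lower among all tested genes, with a median of 0.22 and a range of -0.09 to 0.52. RPS26 was at 147 and 145 CPM with SPHINX31 and at 210 and 204 CPM with the combination (0.50, edgeR adjusted p = 1.26e-06). RPLP0, of the ribosomal stalk, was at 3045 and 2878 CPM and then at 2776 and 2831 CPM, and was not called (-0.08). Many of these genes have processed copies, and RPS10, the highest value of the list at 0.52, was at only 1.01 to 1.66 CPM. RPL17 and RPS15A overlap another gene on the same strand, so their values are uncertain.

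For signalling and metabolism, cholesterol synthesis had 11 of 26 genes higher (42.3%) and 8 lower (30.8%), with a median of 0.12. Among all tested genes 23.4% were higher and 26.5% lower. HMGCS1 (63.7 and 86.0 CPM to 120 and 109 CPM, 0.61) and INSIG1 (0.64), both targets of SREBP2, rose, while SREBF2, which encodes SREBP2, fell from 207 and 198 CPM to 122 and 117 CPM (-0.76). Of 20 tested BCL2 family genes, 4 were higher (20%), 5 lower (25%) and 11 not called (median -0.09), shares near those of all tested genes. The survival genes MCL1 (251 and 248 CPM to 216 and 222 CPM, -0.18) and BCL2L1 (150 and 138 CPM to 125 and 129 CPM, -0.19) fell slightly, as did the sensitiser PMAIP1 (-0.44), and the sensitiser BMF rose from 1.05 and 1.18 CPM to 2.55 and 2.38 CPM (1.14).

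In the list of NF-kB targets and cytokines 10 of 26 tested genes were lower (38.5%) and 6 higher (23.1%), with a median of -0.22. Among all tested genes 26.5% were lower and 23.4% higher. The cytokine IL6 fell from 9.02 and 7.55 CPM to 3.46 and 3.76 CPM (-1.20, edgeR adjusted p = 2.01e-06), and the chemokines CXCL2 (8.38 and 8.10 CPM to 4.04 and 4.19 CPM, -1.0) and CXCL8 (6.24 and 5.93 CPM to 3.90 and 4.38 CPM, -0.55) fell as well. IL6 and CXCL2 started from levels above those of untreated cells, a difference that was not tested here. Untreated cells had 4.06 and 4.46 CPM of IL6 and 4.37 and 5.05 CPM of CXCL2. Without SPHINX31 their log2 fold changes were -0.29 and -0.24, and neither gene was called. CCL2 (1.46) and IL1B (1.34) rose but stayed near or under 1 CPM. Of 40 interferon-stimulated genes, 11 were higher (27.5%), 12 lower (30%) and 17 not called (median 0.03), shares near those of all tested genes. IFIT1, which binds foreign RNA, rose from 2.49 and 2.62 CPM to 6.75 and 5.75 CPM (1.29). Glycolysis and hypoxia genes were mostly not called (21 of 30), with 4 higher (13.3%) and 5 lower (16.7%) and a median of 0.02. Among them VEGFA was the deepest called decrease (217 and 192 CPM to 136 and 138 CPM, -0.58). Of 13 epithelial markers, 5 were lower (38.5%), led by the tight junction gene CLDN7 (-0.96), 2 were higher (15.4%) and 6 not called.

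The calls varied with gene structure. Among protein-coding genes split into 5 bins of 2802 by exon number, the share called lower was 19.9% in the bin with a median of 3 exons, 23.3% at 6, 27.8% at 9, 34.3% at 14 and 40.0% at 23 exons. The share called higher went the other way, from 28.8% to 17.6%, and the median log2 fold change from 0.06 to -0.11. Single-exon genes, which need no splicing, were called higher in 108 of 326 cases (33.1%) and lower in 48 (14.7%). By gene length the share called lower was 19.7% in the bin of shortest genes, 36.1% in the bin with a median of 67988 bases and 34.9% in the longest, so it did not keep rising. Exon number and gene length go together across genes, and their shares were not separated. Long non-coding RNAs were called higher in 614 of 3157 cases (19.4%) and lower in 711 (22.5%). Over the chromosomes the share called higher was 20.5% to 27.2% and the share called lower 22.0% to 32.2%.

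**Figure D1:**
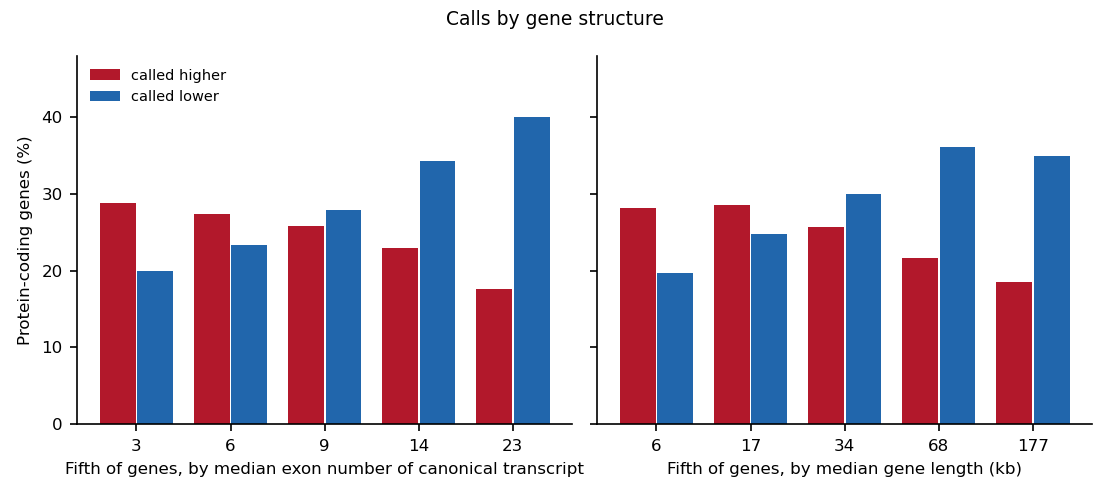
Bars give the percentage of tested protein-coding genes called higher (red) and lower (blue) in the combination over SPHINX31, for 5 bins of 2802 genes by exon number of the canonical transcript (left) and by gene length in kilobases (right), each bin named by its median. The share called lower climbs across the exon bins, from 19.9% to 40.0%, and the share called higher falls from 28.8% to 17.6%.

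The effect of indisulam was then set beside that in cells without SPHINX31, a contrast that shares no library with the first. Indisulam against untreated cells gave 8148 calls (43.7%), 3757 higher (20.1%) and 4391 lower (23.5%). A total of 6776 genes were called in both. Of these, 6774 had the same direction, 72.7% of the calls with SPHINX31 and 83.1% of those without. The log2 fold changes of the 18661 genes had a Pearson correlation of 0.846 and a Spearman correlation of 0.829, given as a description across genes that share libraries and are not independent replicates. Over 9980 genes with a mean of at least 3 on the log2 CPM scale Pearson's r was 0.948. Of the genes called in the presence of SPHINX31, 2538 were not called without it, but 2321 of these had the same sign there, and a call in 1 contrast only does not show that the contrasts differ.

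All 20 genes with the largest changes were called in the same direction without SPHINX31. PTBP2 went from 14.8 and 15.1 CPM to 67.0 and 69.0 CPM (2.19), and SLC7A11 from 587 and 636 CPM to 129 and 116 CPM (-2.32). For RBM39 the levels were 154 and 157 CPM and then 361 and 360 CPM (1.22), so the rise was of like size with and without SPHINX31 (difference -0.09, 95% interval -0.26 to 0.08). CENPI (-2.03 without SPHINX31), CENPK (-1.62), TOP2A (-0.94) and POLA1 (-1.24) fell in both. Without SPHINX31 the median was -0.46 for ATF4 targets (26 of 34 lower), 0.28 for SR proteins (10 of 14 higher) and 0.24 for 3′ splice site factors (14 of 21 higher). For ribosomal proteins it was 0.13, with 35 of 78 higher and 1 lower. Among all tested genes of the contrast without SPHINX31, 20.1% were higher and 23.5% lower. Other lists were less alike in the 2 contrasts. Without SPHINX31, AhR targets had 4 of 14 higher and 4 lower (median 0.02). Mitotic genes had 13 of 47 higher and 18 lower (median -0.10).

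The absolute change was larger in the presence of SPHINX31 for 11005 of all 18661 tested genes. At a mean of at least 3 on the log2 CPM scale, 283 genes changed at least 2-fold in either contrast. Of these, 240 (84.8%) had the larger absolute change with SPHINX31, 32 of 36 increases and 208 of 247 decreases. None changed sign between the contrasts. With SPHINX31, 35 increases and 238 decreases reached 2-fold. A gene that reached it only there has the larger change there by the choice of genes, so the share is partly fixed by the cut. At the same expression level 4532 genes were called in both with the same direction. Of these, 3032 (66.9%) changed more with SPHINX31, and the median absolute log2 fold change of the 4532 was 0.40 with it and 0.35 without. Over all tested genes the medians were 0.30 and 0.26. Among ribosomal protein genes 71 of 78 had the larger absolute change with SPHINX31, against the 11005 of 18661 over all tested genes. These counts carry no test, since genes of the same libraries are not replicates.

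Gene by gene, the difference between the contrasts was tested as an interaction. With edgeR's quasi-likelihood test 0 of 18661 genes passed (0%), the smallest adjusted p being 0.178, and 1584 genes (8.49%) had an unadjusted p under 0.05, 664 with a positive and 920 with a negative difference. DESeq2 called 31 genes, 4 positive and 27 negative. The median standard error of the difference was 0.134 on the log2 scale, and 0.0920 for genes at a mean of at least 3 on the log2 CPM scale, which sets the size of difference that 2 libraries per group can resolve. Among protein-coding genes at that expression level, positive differences with small p were those of HSPA8 (0.55), C4orf3 (0.41) and SNN (0.47). The negative ones were those of TRAPPC6B (-0.50), a subunit of the TRAPP tethering complex, FERMT1 (-0.45), which encodes the integrin activator kindlin-1, SLC12A2 (-0.41), the sodium, potassium and chloride cotransporter, and TIPARP (-0.60). None of these 7 passed the adjusted threshold.

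The values show where these differences lay. HSPA8 was at 1109 and 1053 CPM in untreated cells and at 1766 and 1753 CPM with indisulam alone, so the level reached with indisulam was similar with SPHINX31 (1679 and 1554 CPM) and the levels without indisulam were not. FERMT1 was at 94.3 and 96.8 CPM untreated, 52.2 and 52.7 CPM with indisulam, 89.8 and 93.7 CPM with SPHINX31 and 36.0 and 37.9 CPM with the combination, which was the lowest of the 4 groups. SLC12A2 had the same order at the low end, with 438 and 443 CPM untreated, 273 and 266 CPM with indisulam, 354 and 379 CPM with SPHINX31 and 168 and 170 CPM with the combination. TXNIP, the largest decrease with SPHINX31, was at 12.8 and 15.2 CPM untreated and 4.52 and 5.44 CPM with indisulam (difference -1.03, 95% interval -1.60 to -0.45, edgeR adjusted p = 0.348). For CYP1B1 the log2 fold change was -0.25 without SPHINX31, where the gene went from 110 and 121 CPM to 98.1 and 97.4 CPM, and the difference between the contrasts was -0.55 (edgeR adjusted p = 0.178). IL6 differed by -0.90 (95% interval -1.27 to -0.54, edgeR adjusted p = 0.179), from untreated levels of 4.06 and 4.46 CPM.

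**Figure D2:**
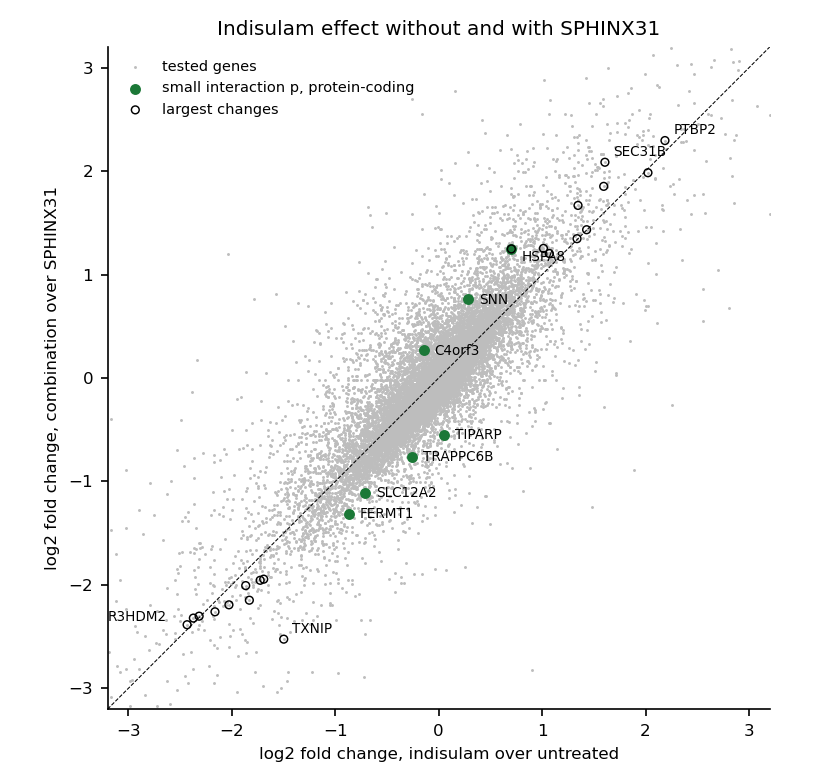
Each grey point is a tested gene, with the log2 fold change of indisulam over untreated on the horizontal axis and of the combination over SPHINX31 on the vertical axis; 96 genes lie outside the axes, which end at 3.2. Open circles are the 20 genes with the largest changes, green points 7 protein-coding genes with small interaction p, and the dashed line marks equal change; most circles lie near the line, while TXNIP lies below it.

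Reads outside annotated features, such as introns and intergenic sequence, also differed. They made up 4.14% and 4.37% of reads on genes or outside features with SPHINX31 (4.25% ± 0.163, SD, n = 2) and 6.57% and 5.45% with the combination (6.01% ± 0.795, SD, n = 2). Both combination libraries were above both SPHINX31 libraries. The same held on 23 of 23 chromosomes, which come from the same libraries and are not independent. There the difference of the means was 1.27 to 3.27 percentage points. With 2 libraries against 2 an exact permutation test cannot give a two-sided p below 0.333. Without SPHINX31 the shares were 4.41% and 4.83% in untreated and 6.20% and 5.09% in indisulam-treated cells, a difference of 1.02 points. Both indisulam libraries were above both untreated libraries on 19 of 23 chromosomes. The share of gene counts from mitochondrial genes was 4.21% and 4.79% with SPHINX31 and 5.48% and 4.63% with the combination, and these groups overlapped. The part of either share in the gene results was not tested.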

How the data were processed

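RNA from A549 cells was sequenced by the authors as stranded poly(A)-selected libraries. Each of the 4 groups had 2 technical replicates. The deposited values are raw counts per Ensembl gene, with reads outside features listed by chromosome. The submitters' processing notes name HISAT2 2.2.1, HTSeq and GRCh38. The annotation release and the strand setting of the counting are not given in the sources used here.

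Groups came from the labels. Genes were kept by edgeR's filterByExpr on all 8 libraries, scaled by TMM and tested with edgeR 4.0.16 (glmQLFit and glmQLFTest, R 4.3.3), Benjamini-Hochberg adjustment and a threshold of 0.05. 1 fit of all 4 groups gave each contrast and the interaction, with 1 shared spread on 4 residual degrees of freedom. Ambiguous and unaligned reads entered no test. The methods were tested on simulated data. Gene positions, exon numbers and lengths came from GENCODE release 44 (99.7% of tested genes) and promoters from RefSeq (chromosome 8, Y and mitochondrial genes left out). Replicates were not copies of 1 library.

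The comparison, its 22 gene lists and the rules were chosen with earlier results of these data known. The 10 largest called changes per direction were named, among protein-coding genes at a mean log2 CPM of at least 3 over the 4 compared libraries. Elsewhere the limit of 3 applied to the mean over all 8 libraries. Their groups had to be without overlap. Also named were the genes the study turns on (RBM39, SRPK1, DCAF15, DDA1 and CAND1). Up to 4 called members per list at a mean log2 CPM of at least 1, and 4 genes per direction by interaction p, were added. Some genes that met these rules are not reported here. Further list members are named by their role and were chosen after their values were seen. The alternatives tried were DESeq2 1.42.0, RLE size factors, total counts, 2 other filters, a replicate block, a GC correction over 50 bins with and without the block, the 4 libraries alone, an adjusted p under 0.1 and leaving out each library.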

Additional observations from a re-analysis of the deposited data

Results flagged for a closer look

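The share of reads outside annotated features lies outside the gene counts that were compared. It was higher by 1.76 percentage points in the combination than with SPHINX31, and by 1.02 points in indisulam-treated than in untreated cells. As a share of all recorded reads, ambiguous and multiply aligned reads included, the first difference was 1.58 points.

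C4orf3 moved in opposite directions in the contrasts. It was at 38 and 35.4 CPM with SPHINX31 and at 44.2 and 44.1 CPM with the combination (log2 fold change 0.27, edgeR adjusted p = 0.00302), and at 44.9 and 41.2 CPM in untreated and 39.9 and 38 CPM in indisulam-treated cells (-0.14, edgeR adjusted p = 0.0776). The difference of 0.41 on the log2 scale did not pass the interaction test of edgeR after adjustment (adjusted p = 0.268). It was picked out because every library of one contrast moved up and every library of the other moved down.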

How the results depend on the processing

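The number of genes called between the combination and SPHINX31 stayed within 1.5 times of 9314 under every alternative run, from 7717 with DESeq2 to 10710 at an adjusted p under 0.1, and from 7340 to 8093 when 1 library was left out and the lone library was assumed to vary like the other groups. For indisulam against untreated cells the counts without 1 library were 5887 to 6846. Scaling by total counts gave 4676 higher and 4733 lower, with a median shift of 0.02 on the log2 scale. Genes that changed at least 2-fold numbered 1069 (388 higher and 681 lower) instead of 2107 when at least 10 counts were required in every library, a filter that removes genes with few reads. Interaction calls numbered 31 with DESeq2, 94 with a filter of at least 1 count in total, 15 with a GC correction and 0 to 1 without 1 library, the single call appearing without SPHINX31 replicate 2 or without untreated replicate 1. The cause of these changes was not tested. The 240 genes with the larger change with SPHINX31 became 229 to 243 under other settings and 228 to 246 without 1 library.

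A replicate block in the model gave 9074 calls, and 0 in the interaction. Not every pair of groups deviated together by replicate number, so the numbers were not taken to pair the libraries. Over 9946 genes the replicate 1 deviations of SPHINX31 and combination libraries had a correlation of 0.0162, and those of untreated and indisulam libraries one of -0.569. The correlations were 0.455 for untreated and SPHINX31, -0.494 for indisulam and SPHINX31, 0.167 for untreated and the combination and 0.0863 for indisulam and the combination. A block with the indisulam numbers exchanged, added after the data were seen, gave 10005 calls and 12 in the interaction.

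Of 1429 values of the 110 named genes under the alternatives, 1421 kept direction and side of the threshold, 8 no longer passed it (SRPK1, BAD and ALDOA) and 0 reversed. Of 352 list counts, 349 stayed within 1.5 times. The exceptions were 1 ATF4 target called higher with the GC correction, with and without the block, and 0 other-cell markers called lower with DESeq2. With 2 technical replicates per group, the biological spread could not be estimated.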
